A study of Mus musculus with 3 samples.

Results

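The genes of the collagen chains, the laminin chains and the integrin subunits were taken from the 3 deposited gene tables by their symbols, that is *Col* followed by a type and chain number, *Lama*, *Lamb* or *Lamc* with a number, and *Itga* or *Itgb* with a number or letter. The rule used no expression value, and it found 77 of the 17633 genes with at least 1 read in any library, of which 68 had reads in the endoderm library, 71 in that of mesoderm, 71 in that of epiblast and 64 in all 3. The libraries came from the endoderm, the mesoderm and the epiblast of E7.5 embryos of the ICR mouse strain, and no treatment or genetic change is stated for any group. The layers were separated by hand after digestion with trypsin and pancreatin, Reichert's membrane was removed first, and the epiblast sample held the neuroectoderm and the primitive streak. RNA was pooled over many embryos, and each layer was sequenced as 1 library, so that no difference below has a replicate check.

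Basement membranes are thin sheets of extracellular matrix in which a laminin network, made of trimers of an α, a β and a γ chain, is joined to a network of collagen IV through nidogen and perlecan. Fibrillar collagens instead build the fibres of interstitial matrix. Integrins are the receptors by which cells hold on to both, each an α and a β subunit, with the α subunit largely setting the ligand. At gastrulation the epiblast rests on a basement membrane that faces the endoderm, and cells that pass through the primitive streak leave it to form mesoderm between the layers.

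The endoderm, mesoderm and epiblast libraries held 41.7 M, 40.8 M and 42.7 M reads on genes, and the 77 genes took 0.384%, 0.231% and 0.159% of them. Levels are given as RPKM, the read count scaled for gene length and library size, which allows genes of different length to be compared, and 3 reads on a gene of 5 kb equal 0.0144, 0.0147 and 0.0140 RPKM in the same order. In bulk tissue, fewer cells of a type and less RNA per cell cannot be told apart. Each marker list was highest in the layer it stands for. The summed RPKM of *Sox17*, *Foxa2* and *Cer1* was 221.4, 49.8 and 3.56 in endoderm, mesoderm and epiblast, that of *Foxf1* (listed as *Foxf1a*), *Kdr*, *Mesp1* and *Hand1* was 2.99, 346.1 and 47.3, and that of *Sox2*, *Pax6*, *Pou5f1* and *Otx2* was 64.4, 142.2 and 618.9. The endoderm library also held genes of the visceral endoderm, the outer extra-embryonic layer of the embryo, with a summed RPKM of 4573 for *Afp*, *Ttr*, *Apoa1*, *Amn* and *Cubn* against 2.86 in mesoderm and 1.82 in epiblast.

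The layers differed in the kind of matrix they transcribed. Endoderm had the highest levels of collagen IV and of the laminin β1 and γ1 chains, mesoderm had the fibrillar collagens *Col1a1* and *Col5a1*, the transmembrane collagens *Col13a1* and *Col23a1* and the laminin α4 chain, and epiblast had the laminin-binding integrins *Itga6* and *Itga3*. Of the 21 members above 5 RPKM in any library, 11 had their highest level in endoderm, 8 in mesoderm and the other 2 in epiblast. Over all genes above that level, the shares highest in each layer were 37.1%, 30.3% and 32.6%. Without a minimum level, 24, 34 and 19 of the 77 members were highest in endoderm, mesoderm and epiblast. These were 31.2%, 44.2% and 24.7%, against 35.7%, 31.1% and 33.2% of all genes. The plot of levels by gene shows all 21.

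**Figure D1:**
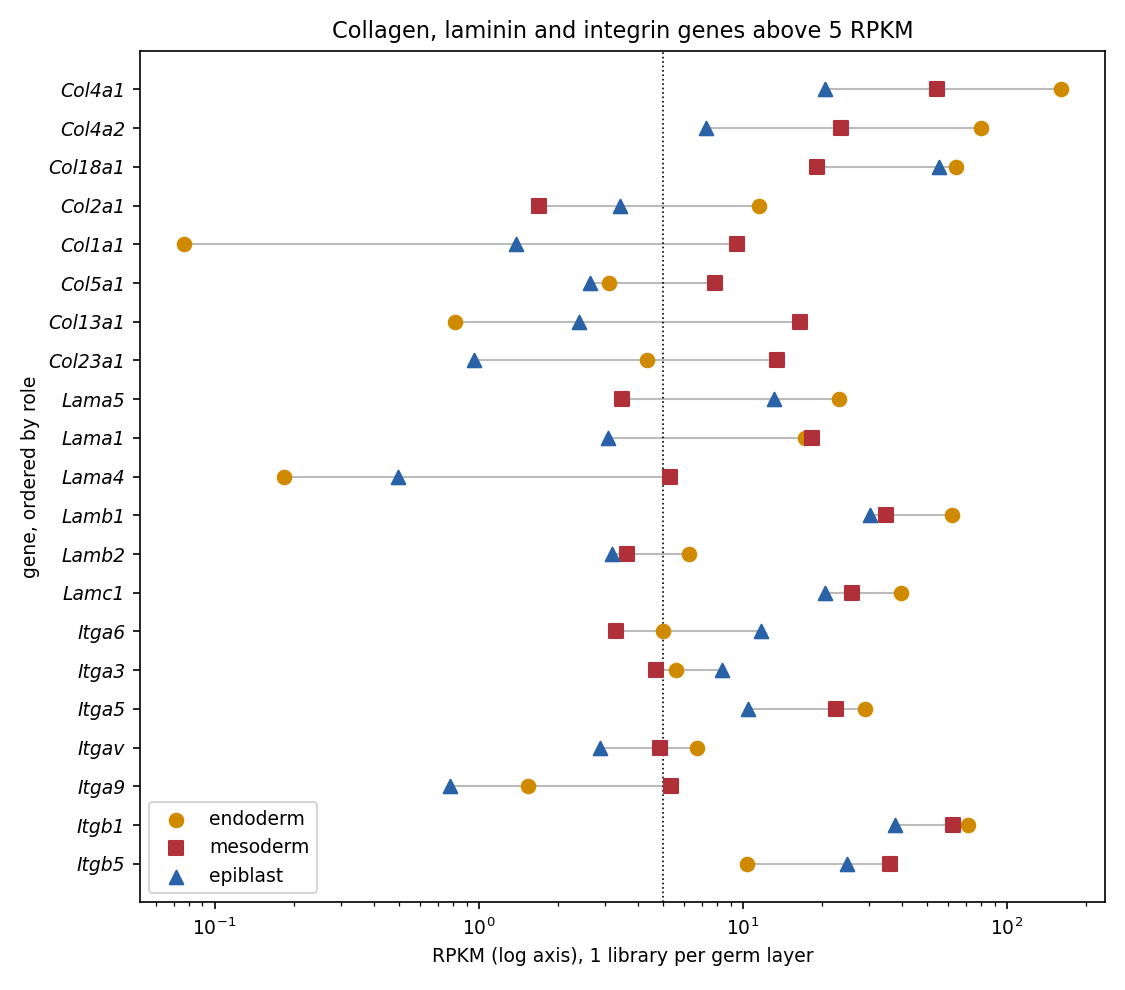
RPKM on a log axis of the 21 collagen, laminin and integrin genes above 5 RPKM in at least 1 library, ordered by role, with 1 point per germ layer (1 library each) and a dotted line at 5 RPKM. *Col4a1* reaches 160.4 RPKM in endoderm, whereas *Col1a1*, *Col13a1* and *Lama4* stand far apart from both other layers in mesoderm.

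Differential expression was called between a pair of libraries with the criteria of the study, RPKM above 5 in at least 1 library, an RPKM ratio above 2 and FDR below 0.001, where the FDR is the Benjamini-Hochberg adjusted p, over all genes with reads, of the Audic-Claverie exact test. This test compares the reads of 2 libraries and knows counting error only, as do the 95% exact (Clopper-Pearson) intervals given with each ratio. Between endoderm and mesoderm, 12 of 75 members with reads were called, against 11.9% of all genes. Of these, 5 were higher in endoderm (background 7.44%) and 7 in mesoderm (background 4.41%). Between endoderm and epiblast, 9 of 73 members were called, against 12.6% of all genes, with 7 higher in endoderm (background 8.02%) and 2 in epiblast (background 4.58%). Between mesoderm and epiblast, 13 of 75 members were called, against 5.04% of all genes, with 10 higher in mesoderm (background 2.58%) and 3 in epiblast (background 2.45%). The shares of members were 16%, 12.3% and 17.3%, so that mesoderm against epiblast lay above the share over all genes. Endoderm against epiblast lay near it. Between endoderm and mesoderm, 6.67% of members were called higher in endoderm, and 9.33% in mesoderm, above the background there. These readings depend on the RPKM minimum, which 21 of 77 members and 9135 of 17633 genes passed. With no minimum, 35 of 75 members were called between endoderm and mesoderm, against 27.2% of all genes. Between endoderm and epiblast, 31 of 73 were then called, against 28.1%, so that both lay above all genes. When edgeR's exact test was run with a coefficient of variation set to 0.4, as replicates might vary, the members still called were *Col13a1*, *Col1a1*, *Col2a1*, *Lama4* and *Lama5* between endoderm and mesoderm, *Col4a1* and *Col4a2* between endoderm and epiblast, and *Col23a1* and *Lama4* between mesoderm and epiblast. Of all genes, 4.21%, 3.78% and 1.04% were called at this setting, in the same order. The 3 comparisons share libraries and are not independent of each other.

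Between endoderm and epiblast, the typical member did not share the direction of most of the called ones. Among members with at least 20 reads in a pair, the median log2 ratio of RPKM was -0.26 for endoderm over mesoderm (59 members), -0.46 for endoderm over epiblast (59 members) and 0.54 for mesoderm over epiblast (61 members). The medians over all genes were -0.11, -0.10 and 0.00. Between endoderm and epiblast, 27 of the 59 members were higher in endoderm, or 45.8%, near the 45.6% of all genes. The summed RPKM of the members was nevertheless highest in endoderm, at 620.4 against 410.6 for mesoderm and 282.2 for epiblast, since a few basement membrane genes with very high levels made up most of it.

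Collagen IV, the network-forming collagen of basement membranes, was the most abundant collagen in endoderm and mesoderm. *Col4a1* (chr8:11198423-11312826 of GRCm38, minus strand), which encodes the α1(IV) chain, was at 160.4 RPKM in endoderm (44340 reads), 54.4 in mesoderm (14736 reads) and 20.6 in epiblast (5828 reads). *Col4a2* (chr8:11312805-11449287, plus strand), which encodes the α2(IV) chain of the same trimer, was at 79.9, 23.6 and 7.24 RPKM. Both genes stood in the order endoderm, mesoderm, epiblast, with steps well beyond counting error. *Col4a1* was 2.95-fold higher in endoderm than in mesoderm (2.90 to 3.01) and 2.64-fold higher in mesoderm than in epiblast (2.56 to 2.73), and *Col4a2* was 3.38-fold (3.29 to 3.48) and 3.26-fold (3.10 to 3.43) higher. All of these were called. From endoderm to epiblast the ratios came to 7.80 (7.59 to 8.02) for *Col4a1* and 11.03 (10.5 to 11.6) for *Col4a2*.

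The α1(IV) and α2(IV) genes lie head to head, and their transcripts start within 22 bases of each other in RefSeq, on opposite strands. The stretch between the start sites is shown because both genes, which moved together across the layers, begin in it. It is chr8:11312805-11312826 of GRCm38.p6, written on the plus strand with the letters GGGCGG, or their reverse complement, in capitals, as are the letters of every motif in the sequences below.

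Between the *Col4a2* and *Col4a1* start sites: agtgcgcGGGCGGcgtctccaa

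The letters GGGCGG occurred on either strand in the 250 bases before the start of 32.7% of 32851 RefSeq promoters, and in 29 of the 55 members that have an entry. The share is over promoters, of which a gene can have more than 1, and the count is over member genes. Both refer to 250 bases before a start. The stretch shown has 22 bases and lies inside both transcripts, so neither is a background for it. The annotated exons of the pair overlap at the start, and whether strand was used in counting is not given in the sources used here, so that reads of this short overlap could have gone to either gene. The ratio of *Col4a1* to *Col4a2* levels was not the same in the 3 libraries, at 2.01 in endoderm (1.98 to 2.04), 2.30 in mesoderm (2.23 to 2.37) and 2.84 in epiblast (2.70 to 2.99). The excess of *Col4a1* over *Col4a2* was thus greatest where both were lowest.

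The remaining collagen IV genes followed another order. *Col4a5* and *Col4a6*, which encode the α5(IV) and α6(IV) chains and are described here because of their values, were at 2.07 and 2.04 RPKM in mesoderm (549 and 554 reads), 0.875 and 0.958 in epiblast (243 and 272 reads) and 0.532 and 0.293 in endoderm (144 and 81 reads). Their levels were about equal in mesoderm, with a *Col4a5* to *Col4a6* ratio of 1.01 (0.899 to 1.14), and in epiblast, with 0.913 (0.765 to 1.09), but *Col4a5* was 1.82-fold higher than *Col4a6* in endoderm (1.37 to 2.42). Neither reached 5 RPKM, so neither could be called. *Col4a3* had 8, 0 and 4 reads, and *Col4a4* had 6 reads, all in epiblast. This second pair is also head to head, on the X chromosome, with RefSeq start sites 1343 bases apart. The bases before the *Col4a6* start (chrX:141474077-141474326, minus strand) and before the *Col4a5* start (chrX:141475169-141475384, plus strand, without bases that GENCODE places in an exon) are printed for comparison with the shared start of the other pair.

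*Col4a6* upstream: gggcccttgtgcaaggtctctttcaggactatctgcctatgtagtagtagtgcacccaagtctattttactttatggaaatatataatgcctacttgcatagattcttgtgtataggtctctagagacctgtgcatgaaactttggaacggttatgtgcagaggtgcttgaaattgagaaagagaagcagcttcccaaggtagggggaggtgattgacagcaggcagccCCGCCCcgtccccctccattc

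*Col4a5* upstream: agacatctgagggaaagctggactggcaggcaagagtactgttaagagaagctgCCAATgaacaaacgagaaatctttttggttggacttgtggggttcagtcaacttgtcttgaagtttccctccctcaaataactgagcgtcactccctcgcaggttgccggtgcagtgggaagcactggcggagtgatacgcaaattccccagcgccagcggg

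The motifs searched, on both strands, were the CCAAT box, the GC box GGGCGG, the TATA box TATAAA and the E-box CAGGTG. The *Col4a6* stretch held 1 GGGCGG and the *Col4a5* stretch held 1 CCAAT, and neither held TATAAA or CAGGTG. The letters CCAAT occurred in 33.8% of all promoters and in 14 of 55 members, TATAAA in 12.4% and in 4 members, and CAGGTG in 17.2% and in 10 members. A match in these letters is a description of the sequence and says nothing of the binding of a factor.

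*Col18a1* (chr10:77052178-77166548, minus strand), which encodes the multiplexin collagen XVIII, a basement membrane collagen that carries heparan sulphate, showed a different pattern from collagen IV. It was at 64.1, 19.1 and 55.6 RPKM in endoderm, mesoderm and epiblast, lowest in mesoderm. Endoderm was 3.35-fold (3.24 to 3.46) and epiblast 2.91-fold (2.81 to 3.01) above mesoderm, and both differences were called, whereas endoderm exceeded epiblast only 1.15-fold (1.13 to 1.18). *Col15a1*, the other multiplexin, had 10, 9 and 8 reads. *Col18a1* alone therefore made up nearly all of the multiplexin share of collagen RPKM, which came to 19.1%, 11.2% and 51.1%. The corresponding shares of collagen IV were 71.7%, 48.0% and 27.2%, so that collagen XVIII and not collagen IV was the leading collagen of the epiblast library.

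The laminins differed between the layers mainly in their α chain. *Lama5* (chr2:180176373-180225859, minus strand), the α5 chain of widespread epithelial basement membranes, was at 23.1 RPKM in endoderm (10990 reads), 3.49 in mesoderm (1625 reads) and 13.1 in epiblast (6399 reads). *Lama1* (chr17:67697259-67822647, plus strand), the α1 chain of the earliest embryonic basement membranes, was at 17.2, 18.3 and 3.09 RPKM (6833, 7134 and 1255 reads). *Lama4* (chr10:38965515-39110188, plus strand), the α4 chain of mesenchymal and endothelial basement membranes, was at 0.183, 5.30 and 0.496 RPKM (46, 1309 and 128 reads). The layer with least *Lama5* was mesoderm, and the layer with least *Lama1* was epiblast.

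*Lama5* was 6.63-fold higher in endoderm (6.30 to 6.99) and 3.77-fold higher in epiblast (3.57 to 3.98) than in mesoderm, and both were called. *Lama1* was 5.58-fold higher in endoderm (5.26 to 5.93) and 5.94-fold higher in mesoderm (5.60 to 6.32) than in epiblast, also called. Its mesoderm and endoderm levels lay close together, with mesoderm 1.06-fold higher (1.03 to 1.10), a direction that turned under scaling by the median of ratios or by TMM. *Lama4* was 29.0-fold higher in mesoderm than in endoderm (21.6 to 39.8) and 10.7-fold higher than in epiblast (8.91 to 12.9). The ratio of *Lama5* to *Lama1* within a library summed up the contrast, at 1.34 in endoderm (1.30 to 1.38), 0.190 in mesoderm (0.180 to 0.201) and 4.26 in epiblast (4.01 to 4.52). As shares of all α chain RPKM, *Lama1*, *Lama5* and *Lama4* took 42.3%, 56.8% and 0.449% in endoderm, 67.2%, 12.8% and 19.4% in mesoderm, and 18.3%, 78.0% and 2.94% in epiblast.

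*Lama5* and *Col18a1* shared the order endoderm, epiblast, mesoderm, and both were called lower in mesoderm than in either other layer. Their upstream bases (*Lama5* chr2:180225860-180226109, minus strand, and *Col18a1* chr10:77166549-77166780, minus strand, without bases in an annotated exon) are given for that reason, with capitals as above. RefSeq lists 2 promoters for *Col18a1*, and the one printed is the more upstream.

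*Lama5* upstream: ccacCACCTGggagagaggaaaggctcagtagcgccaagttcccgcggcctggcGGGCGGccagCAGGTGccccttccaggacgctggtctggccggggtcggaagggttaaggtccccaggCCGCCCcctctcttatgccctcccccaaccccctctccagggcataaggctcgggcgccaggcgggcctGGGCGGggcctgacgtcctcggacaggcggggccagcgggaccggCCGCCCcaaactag

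*Col18a1* upstream: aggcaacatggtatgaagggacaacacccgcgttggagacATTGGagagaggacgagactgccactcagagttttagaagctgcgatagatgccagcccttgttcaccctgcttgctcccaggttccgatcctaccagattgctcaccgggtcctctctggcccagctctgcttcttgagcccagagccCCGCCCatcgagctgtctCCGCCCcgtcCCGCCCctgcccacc

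The *Lama5* stretch held 4 GGGCGG and 2 CAGGTG, and the *Col18a1* stretch held 3 GGGCGG, 1 CCAAT and no CAGGTG. The E-box, whose letters Snail and Zeb factors read, was added to the search after the values of these genes were seen.

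The leading β and γ chains, in contrast, kept nearly the same proportions in every layer. *Lamb1* (chr12:31265234-31329644, plus strand), the β1 chain, was at 62.2, 34.8 and 30.2 RPKM in endoderm, mesoderm and epiblast and took 87.8%, 89.9% and 89.2% of β chain RPKM. *Lamc1* (chr1:153218922-153332786, minus strand), the γ1 chain common to most laminins, was at 39.7, 26.0 and 20.4 RPKM. *Lamb2*, the β2 chain, was at 6.29, 3.66 and 3.20 RPKM. All 3 genes were highest in endoderm and lowest in epiblast, and their ratios to each other moved little: *Lamb1* to *Lamb2* was 9.89, 9.52 and 9.45, and *Lamb1* to *Lamc1* was 1.57, 1.34 and 1.48.

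Of these chains, only *Lamb1* between endoderm and epiblast was called, at 2.06-fold (1.9998 to 2.11), and this call was lost when the libraries were scaled to the same upper quartile. *Lamc1* was 1.94-fold higher in endoderm than in epiblast (1.89 to 2.002) and *Lamb2* 1.96-fold, just under the ratio of 2, and both passed it under 3 other scalings. Between mesoderm and epiblast the 3 chains differed by 1.15-fold, 1.14-fold and 1.27-fold for *Lamb1*, *Lamb2* and *Lamc1*. The sums over chains were 40.7 RPKM for α and 70.8 for β in endoderm, 27.3 and 38.8 in mesoderm, and 16.8 and 33.9 in epiblast, with β above α in each.

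**Figure D2:**
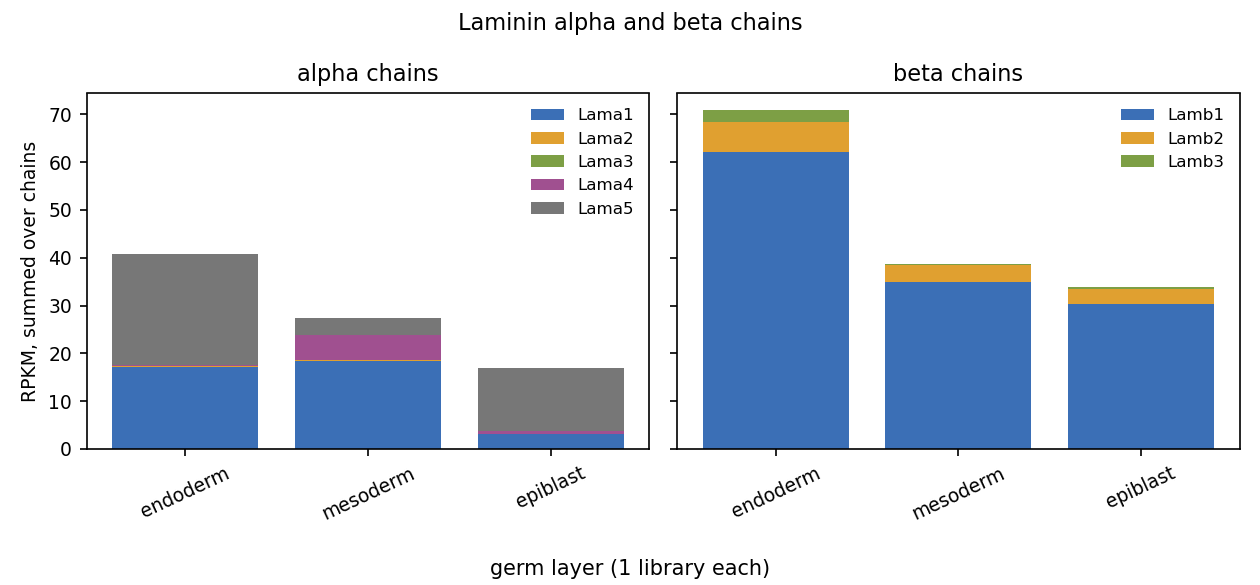
RPKM of the laminin α and β chain genes in each germ layer (1 library each), stacked so that the height of a bar is the sum over the chains of a class. The β bar is mostly *Lamb1* in each layer, while the α bar changes from *Lama1* with *Lama5* in endoderm to mainly *Lama1* with *Lama4* in mesoderm and mainly *Lama5* in epiblast.

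*Lama3* and *Lamb3*, chains known from the skin, were low and did not have the same highest layer. *Lamb3* had 397, 42 and 77 reads in endoderm, mesoderm and epiblast, and *Lama3* had 4, 2 and 35 reads. *Itgb4*, the β4 subunit of the hemidesmosome integrin of skin, had 154, 15 and 51 reads. Each of the 3 had its lowest count in mesoderm. *Lama2*, the α2 chain of muscle basement membrane, stood at or below 0.163 RPKM in each layer, and *Lamc3* had at most 6 reads.

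Of 11 fibrillar collagens, 7 were highest in mesoderm, 2 in endoderm and 2 in epiblast, against 31.1%, 35.7% and 33.2% of all genes. *Col1a1* (chr11:94936224-94953042, plus strand), the α1 chain of collagen I, was at 0.0765 RPKM in endoderm (15 reads), 9.51 in mesoderm (1830 reads) and 1.38 in epiblast (278 reads). *Col5a1* (chr2:27886425-28039514, plus strand), the α1 chain of collagen V, which starts the assembly of collagen I fibrils, was at 3.13, 7.83 and 2.63 RPKM. Both were called higher in mesoderm than in each other layer. *Col1a1* was 124.4-fold higher in mesoderm than in endoderm (75.2 to 222.7), the largest ratio among the members above 5 RPKM, and 6.88-fold higher than in epiblast (6.06 to 7.84). The size of the first ratio rests on the few endoderm reads. With a pseudocount of 1 RPKM, endoderm over mesoderm went from 0.00804 to 0.102, next to 0.103 for *Col13a1*. *Col5a1* was 2.50-fold (2.33 to 2.69) and 2.98-fold (2.76 to 3.21) higher, with non-coding genes annotated on the other strand over some of its exons.

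The partner chains of collagen I and collagen V, named here after their values were seen, were also highest in mesoderm, but with steps of another size. *Col1a2*, the α2 chain of collagen I, was at 1.28, 3.41 and 1.53 RPKM, so that the ratio of *Col1a1* to *Col1a2* was 0.0596 in endoderm but 2.79 in mesoderm (2.56 to 3.05) and 0.901 in epiblast (0.766 to 1.06). Collagen I has more α1 than α2 chains in its trimer, and only the mesoderm library held more *Col1a1* than *Col1a2* beyond counting error. The epiblast interval includes equal levels, so the order of these chains is undecided there. *Col5a2*, which pairs with *Col5a1*, was at 0.221, 4.27 and 1.21 RPKM, and the *Col5a1* to *Col5a2* ratio was 14.1, 1.83 and 2.17 in the 3 layers. *Col3a1*, the collagen of soft connective tissue, had 0 reads in endoderm, which allows up to 3, 63 in mesoderm and 38 in epiblast.

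*Col2a1* (chr15:97975602-98004695, minus strand), the collagen of cartilage and of the notochord, went the other way. It was at 11.5 RPKM in endoderm (2474 reads), 1.70 in mesoderm (357 reads) and 3.44 in epiblast (756 reads), and was called higher in endoderm by 6.80-fold over mesoderm (6.08 to 7.62) and 3.36-fold over epiblast (3.09 to 3.64). Genes of the node and notochord, listed after these values were seen, were also higher in the endoderm library. *Noto* was at 15.9, 0.886 and 2.56 RPKM, *Shh* at 7.82, 0.180 and 0.404, *Foxj1* at 42.1, 2.25 and 10.6, and *Chrd* at 13.4, 0.974 and 3.47, in the order endoderm, mesoderm, epiblast. *T*, which the primitive streak also expresses, was at 93.7, 74.8 and 228.5 RPKM. The part of such cells in the *Col2a1* level was not tested.

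Transmembrane collagens, which sit in the plasma membrane of the cell that makes them, were highest in mesoderm where they were above 5 RPKM. *Col13a1* (chr10:61838236-61979108, minus strand) was at 0.811 RPKM in endoderm (98 reads), 16.5 in mesoderm (1959 reads) and 2.40 in epiblast (297 reads). *Col23a1* (chr11:51289920-51583918, plus strand) was at 4.34, 13.5 and 0.959 RPKM. Mesoderm was above both other layers for each gene, and the order of those other layers was reversed between the genes. *Col13a1* was 20.4-fold higher in mesoderm than in endoderm (16.6 to 25.2) and 6.90-fold higher than in epiblast (6.10 to 7.82), and *Col23a1* was 3.12-fold (2.90 to 3.35) and 14.1-fold (12.3 to 16.2) higher. The class took 17.6% of collagen RPKM in mesoderm but 1.56% in endoderm and 3.14% in epiblast, a share equal to the 17.6% of the fibrillar collagens in mesoderm, which were 5.52% and 10.9% in the other layers.

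**Figure D3:**
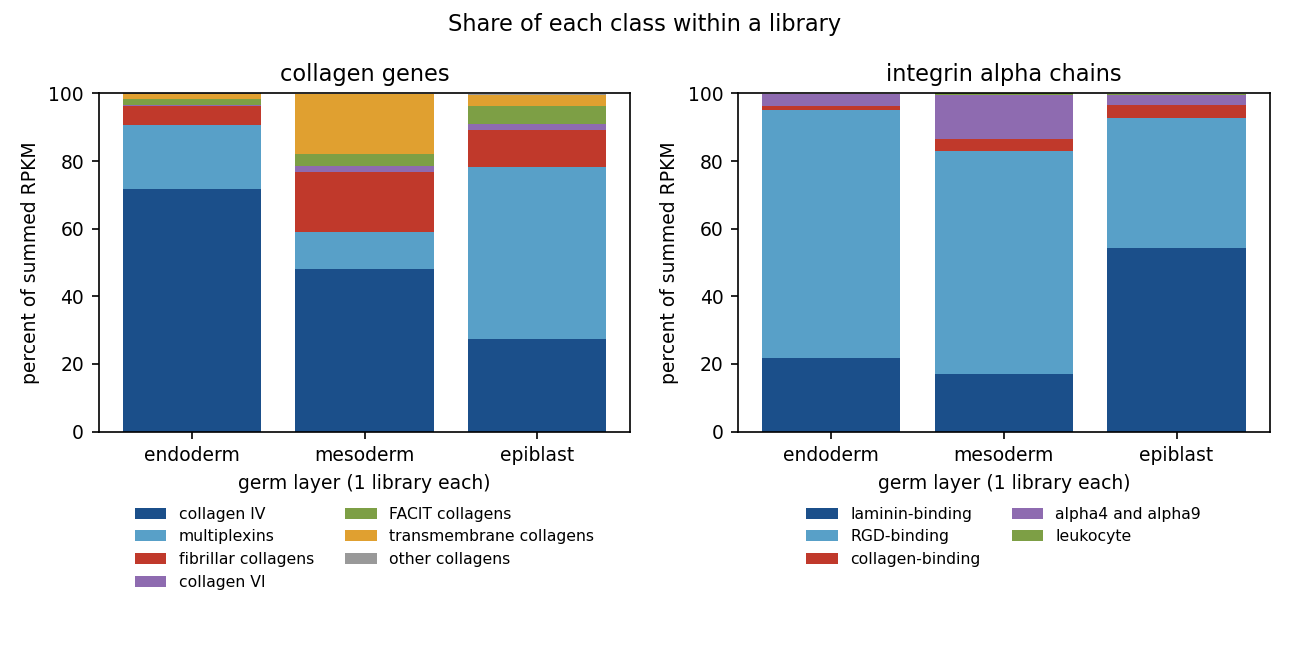
Percent of summed RPKM taken by each class of collagen genes (left) and of integrin α subunit genes (right) in each germ layer, 1 library each. Collagen IV takes 71.7%, 48.0% and 27.2% from left to right, and laminin-binding α subunits take 54.2% in epiblast against 21.7% in endoderm and 16.95% in mesoderm.

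The other collagens stayed below 5 RPKM and none could be called. *Col6a1*, which had the highest level in any layer among chains of the beaded filament collagen VI, was at 0.313, 1.53 and 0.475 RPKM, 4.88-fold higher in mesoderm than in endoderm (3.61 to 6.72), while *Col6a2* was above it in the other layers, at 0.528, 1.44 and 1.31 RPKM. *Col9a3*, which had the highest level in any layer among FACIT collagens, a class that decorates the surface of fibrils, was at 3.78, 1.13 and 2.99 RPKM, and exons of *Tcfl5* overlap it on the other strand. *Col7a1*, the anchoring fibril collagen of skin, was at 0.284, 0.273 and 0.470 RPKM. *Col9a1*, by contrast with *Col9a3*, was highest in mesoderm, at 0.340, 3.37 and 0.476 RPKM, so that these chains of collagen IX had reads in each layer but not the same highest layer.

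The mesoderm levels of these genes can be read beside those of mesoderm markers in the other libraries. The epiblast level of *Hand1* was 14.98% of its mesoderm level, that of *Mesp1* 22.99% and that of *Kdr* 1.89%. Among the matrix and receptor genes, the epiblast level was 14.5% of the mesoderm level for *Col1a1*, *Col13a1* and *Itga9* alike, 9.35% for *Lama4*, 7.09% for *Col23a1*, 21.6% for *Itga8*, 28.3% for *Col5a2* and 33.6% for *Col5a1*. All of these but *Col5a1* and *Col5a2* lay within the range of the 3 markers, which leaves out *Foxf1*. The genes compared are a selection. Of the 8 members above 5 RPKM that were highest in mesoderm, it lacks *Lama1*, at 16.8% within the range, and *Itgb5*, at 68.5% above it. Other members below 5 RPKM that were highest in mesoderm lay on either side, such as *Col9a1* at 14.1% and *Col4a6* at 47.0%. In endoderm, *Hand1*, *Kdr* and *Mesp1* stood at 0.451%, 0.668% and 2.69% of their mesoderm level. Of the members compared, *Col1a1* at 0.804% lay within this range, and *Lama4* at 3.45%, *Col13a1* at 4.91%, *Col5a2* at 5.18%, *Itga8* at 6.10%, *Itga9* at 28.6%, *Col23a1* at 32.1% and *Col5a1* at 39.9% lay above it. *Itgb5* at 28.7% and *Lama1* at 93.9% also lay above it. The part of mesoderm cells, or of cells on their way to mesoderm, in the epiblast levels was not tested.

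**Figure D4:**
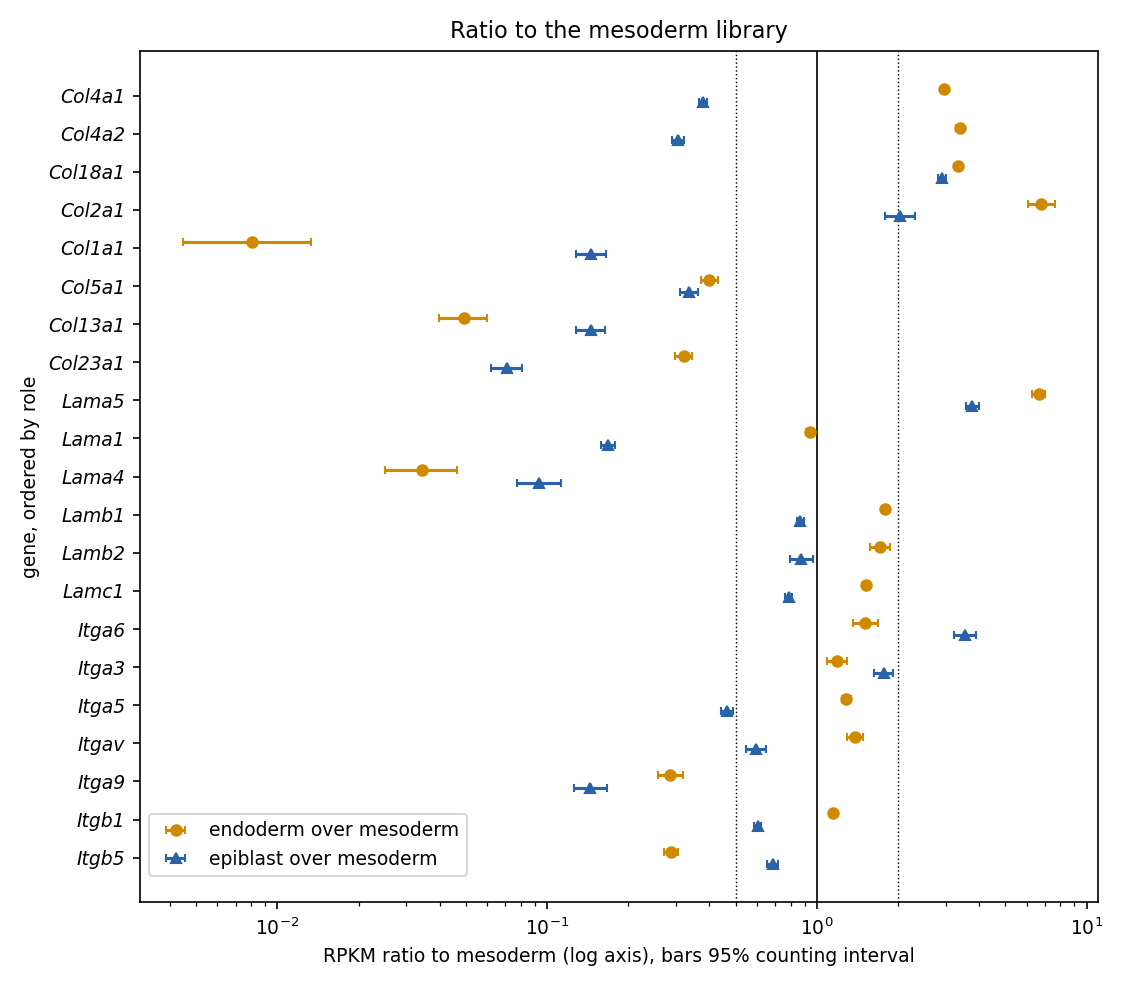
RPKM of each of the 21 genes in endoderm (circles) and epiblast (triangles) divided by its RPKM in mesoderm, on a log axis, with 95% counting intervals and 1 library per layer, and dotted lines at the ratios 0.5 and 2. *Lama5*, *Col18a1*, *Col2a1*, *Itga6* and *Itga3* lie above mesoderm in both, *Col1a1*, *Col13a1*, *Col23a1*, *Col5a1*, *Lama4*, *Itga9* and *Itgb5* lie below it in both, *Lama1* lies near 1 in endoderm and far below in epiblast, and the other genes lie above in endoderm and below in epiblast.

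Among the integrin α subunits, those that bind laminin had their highest levels in epiblast. *Itga6* (chr2:71745616-71858416, plus strand), the α6 subunit, was at 5.01 RPKM in endoderm, 3.32 in mesoderm and 11.8 in epiblast, 2.35-fold (2.17 to 2.54) and 3.54-fold (3.23 to 3.89) higher in epiblast, both called. *Itga3*, the α3 subunit, which binds the α5 laminins, was at 5.60, 4.70 and 8.33 RPKM, 1.77-fold higher in epiblast than in mesoderm (1.63 to 1.92) and 1.49-fold higher than in endoderm, which were not called. *Itga7*, the laminin receptor of muscle, had 12, 8 and 22 reads. The ratio of *Itga6* to *Itga3* was 0.895, 0.705 and 1.41, so that *Itga6* led only in epiblast.

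The leading α subunits of the receptors of fibronectin and vitronectin, which recognise the peptide RGD, were lowest in epiblast. *Itga5* (chr15:103344286-103366763, minus strand), the α5 subunit of the fibronectin receptor, was at 29.0, 22.5 and 10.5 RPKM in endoderm, mesoderm and epiblast. *Itgav* (chr2:83724397-83806916, plus strand), the αv subunit, was at 6.74, 4.87 and 2.89 RPKM. Both were called higher in endoderm than in epiblast, by 2.77-fold (2.63 to 2.91) and 2.33-fold (2.15 to 2.52), and *Itga5* was also called higher in mesoderm than in epiblast, by 2.15-fold (2.04 to 2.27). The RGD-binding class took 73.5% of integrin α RPKM in endoderm and 66.0% in mesoderm but 38.4% in epiblast, whereas the laminin-binding class took 21.7%, 16.95% and 54.2%. In ratio, *Itga5* exceeded *Itga6* by 5.79-fold in endoderm and 6.79-fold in mesoderm, and in epiblast it was 0.891 of it.

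Of the other α subunits, 1 reached 5 RPKM. *Itga9* (chr9:118606690-118901003, plus strand), whose ligands include tenascin and the alternatively spliced region of fibronectin, was at 1.53, 5.36 and 0.776 RPKM, and was called 3.50-fold (3.15 to 3.89) and 6.91-fold (6.01 to 7.97) higher in mesoderm. *Itga8*, an RGD-binding subunit known from kidney development and described because of its value, was at 0.228, 3.74 and 0.810 RPKM. *Itga1*, the leading collagen-binding subunit, was at 0.401, 1.33 and 1.36 RPKM, and the order of mesoderm and epiblast turned when the libraries were rescaled to the same RPKM total. Collagen-binding subunits together made up 1.15%, 3.64% and 4.09% of integrin α RPKM.

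*Itgb1* (chr8:128685654-128733200, plus strand), the β1 subunit that pairs with most of the α subunits above, was the most abundant integrin in each layer, at 71.4, 62.4 and 37.7 RPKM in endoderm, mesoderm and epiblast. It differed by 1.90-fold between endoderm and epiblast and was not called in any pair. *Itgb5* (chr16:33829665-33949338, plus strand), the β5 subunit that pairs with αv, was at 10.4, 36.1 and 24.7 RPKM. It ran against its α partner, being lowest in endoderm, where *Itgav* was highest. Mesoderm was 3.48-fold (3.28 to 3.70) and epiblast 2.39-fold (2.24 to 2.54) above endoderm, both called. *Itgb1* exceeded *Itgb5* by 6.89-fold in endoderm but by 1.73-fold in mesoderm and 1.52-fold in epiblast. The remaining β subunits stood below 1 RPKM, *Itgb8*, which also pairs with αv, at 0.302, 0.348 and 0.824.

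Integrins of blood cells were near 0. *Itgae*, the highest of the leukocyte α subunits listed, had 13, 25 and 20 reads, *Itgb2* had 0, 16 and 0, and *Itga2b*, the platelet and early blood progenitor subunit, had 22, 38 and 19. The leukocyte markers *Ptprc*, *Csf1r*, *Cd68* and *Lyz2* summed to 1.93, 0.996 and 1.19 RPKM, with *Ptprc* at 0, 0 and 2 reads and *Lyz2* at 0 in each. The megakaryocyte marker *Pf4* had 1 read, in mesoderm, and *Gp9* had 0. The endothelial markers *Pecam1*, *Cdh5* and *Tek* summed to 0.530, 6.01 and 0.773 RPKM, highest in mesoderm as *Lama4* was, and their part in the *Lama4* level was not tested.

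Collagen IV and *Lama1* are also the products of the parietal endoderm, the cells on Reichert's membrane, and of its markers *Srgn* was at 15.1, 0.522 and 0.0250 RPKM, *Plat* at 13.1, 5.95 and 1.14, *Pth1r* at 38.8, 23.5 and 2.49, and *Thbd* at 0.149, 1.61 and 0.107. The 4 summed to 67.2, 31.6 and 3.76 RPKM, the order of the *Col4a1* levels, and the part of such cells was not tested. The trophoblast markers *Elf5*, *Esx1*, *Plac1*, *Tpbpa* and *Prl3d1* summed to 27.1, 6.44 and 1.03 RPKM. The endoderm sum was nearly all *Plac1*, at 19.9 RPKM, and *Esx1*, at 7.11. *Elf5* ran the other way, with 10, 12 and 31 reads, and *Tpbpa* and *Prl3d1* had 0 in each library. Markers of the maternal decidua (*Prl8a2*, *Dcn*, *Des* and *Cryab*) summed to 1.20, 7.39 and 3.89 RPKM, with *Prl8a2* at 0 in each, and primitive erythroid and megakaryocyte markers to 3.39, 4.48 and 0.905. *Dcn* had 27, 8 and 41 reads and was lowest in mesoderm, whereas *Des* (28, 437 and 250) and *Cryab* (27, 113 and 34) were highest there. The erythroid sum in endoderm was nearly all *Gata1*, at 3.27 RPKM, and *Hbb-bh1* had 0, 37 and 0 reads.

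Several partners of laminin and collagen IV in the basement membrane were also highest in endoderm. Of 9 partners, 4 were called higher in endoderm and 0 in mesoderm in that pair, 6 in endoderm and 0 in epiblast in the next, and 2 in mesoderm and 1 in epiblast in the last. The backgrounds over all genes were, in that order, 7.44% and 4.41%, 8.02% and 4.58%, and 2.58% and 2.45%, and they apply to the following lists too. *Nid2*, a nidogen that links laminin to collagen IV, was at 112.7, 25.6 and 17.2 RPKM, and *Nid1* at 8.71, 5.34 and 1.07. *Agrn*, a proteoglycan that binds laminin, was at 83.6, 22.3 and 26.7 RPKM, and *Hspg2*, perlecan, at 12.5, 14.6 and 8.81. *Bcam*, a surface receptor of laminin α5, was at 38.2, 12.3 and 35.2 RPKM, the order of *Lama5* itself. *Fn1*, fibronectin, the ligand of *Itga5*, stood out from these with 181.2, 337.1 and 60.9 RPKM, highest in mesoderm.

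Of 18 genes of collagen folding and crosslinking, 1 was called higher in endoderm and 2 in mesoderm between these layers, 5 in endoderm and 1 in epiblast between those, and 4 in mesoderm and 0 in epiblast in the last pair. A count of 1 in a list of this size lies near the background. *Serpinh1*, the collagen chaperone, was at 247.7, 266.4 and 99.6 RPKM, and *P4ha1*, a prolyl hydroxylase subunit, at 54.8, 24.9 and 11.7. *Pcolce*, which aids the cleavage of fibrillar procollagens, was at 1.44, 22.3 and 6.30 RPKM, in the order of *Col1a1*. Of the discoidin receptors, which bind collagen without integrins, *Ddr1* was at 17.3, 9.63 and 23.9 RPKM and *Ddr2* had 6, 107 and 0 reads, so that they were highest in different layers.

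Of 15 adaptors that link integrins to actin, 1 was called higher in endoderm than in mesoderm, 5 higher in endoderm than in epiblast and 1 higher in mesoderm than in epiblast, with 0 called in the other directions, and a count of 1 lies near the background here too. *Fermt1*, the kindlin of epithelia and the adaptor called against mesoderm, had 1619, 12 and 167 reads in endoderm, mesoderm and epiblast. *Ilk*, the integrin-linked kinase, was at 63.0, 66.1 and 45.8 RPKM and *Zyx*, zyxin, at 40.3, 62.9 and 69.9.

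The depth behind these values was high for the genes that could be called. The 21 members above 5 RPKM had 1309 to 44340 reads in their highest library and reads over 94.3% to 99.95% of their length. The 13 members between 1 and 5 RPKM had 220 to 1154 reads, and the 43 members at or below 1 RPKM had 2 to 333, with a median of 25. *Col10a1*, *Col21a1*, *Itgb6* and *Itgax* were not listed under these symbols. *Emid2*, an older symbol of *Col26a1* that the naming rule does not take, was at 0.169, 4.61 and 1.44 RPKM.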

How the data were processed

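Total RNA of each layer was made into a paired-end library and sequenced on an Illumina HiSeq instrument. Per the paper, the authors trimmed adapters and discarded reads of low quality, and they deposited for each gene the uniquely mapped read count, the gene length, the coverage as a percent of that length, and the RPKM. The deposited RPKM equals the read count divided by gene length and by the sum of gene counts (largest relative difference 2.03e-07). The submitters' processing notes list TopHat, mm10 and mm9 without a role, and the aligner, annotation and strand setting of the gene table are not given in the sources used here. Genes absent from a table were given 0 reads there, which allows up to 3.

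Library sizes were the sums of gene counts, and no other scaling was applied. Calls and intervals were as given in the report, and intervals and the limit of 3 reads cover counting error only. The quasi-likelihood test of edgeR needs replicates, which 1 library per layer does not give, and the exact test of edgeR with the coefficient of variation set to 0.2 or 0.4 (FDR below 0.05) was an alternative, beside other RPKM minimums, ratios, a pseudocount of 1 and 4 scalings. Named members were those above 5 RPKM in any library and, in a class with none, the highest member. The members and lists were chosen with earlier results of these data known, and *Col4a5*, *Col4a6*, *Col1a2*, *Col5a2*, *Col9a1*, *Itga8*, *Itgb8*, *Itgb4* and other low genes are described after their values were seen. *Foxf1*, *Colgalt1* and *Colgalt2* were matched through older symbols.

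Positions are from GENCODE M21 (GRCm38), where 77 of 77 members were found, and upstream sequences and start sites from RefSeq (GRCm38.p6), where 55 were. Computations ran in R 4.3.3 (edgeR 4.0.16) and Python 3.11.15 (SciPy 1.17.1 for tests, with numpy 2.4.6 and pandas 2.3.3, and matplotlib 3.10.9 for plots). Members without a value of their own are covered by the counts and ranges, and 1 result is not reported here. Microarray, qPCR and splicing data were not analysed here.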

Additional observations from a re-analysis of the deposited data

How the results depend on the processing

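The counts of members called were 12 (endoderm against mesoderm), 9 (endoderm against epiblast) and 13 (mesoderm against epiblast). In that order they became 24, 17 and 24 with an RPKM minimum of 1, 35, 31 and 34 with none, 5, 3 and 6 with a ratio above 4, and 5, 2 and 2 with the exact test of edgeR and a coefficient of variation set to 0.4, since these settings loosen or tighten the criteria themselves. The shares of all genes called were 19.6%, 20.6% and 10.8% with a minimum of 1, and 27.2%, 28.1% and 16.2% with none. They were 5.44%, 5.20% and 1.95% with a ratio above 4, and 4.21%, 3.78% and 1.04% at a coefficient of 0.4. At a coefficient of 0.2 the counts were 12, 9 and 12, *Itga5* being lost in the last pair. With that setting included, 27 of the recomputed counts stayed within 1.5 times and 12 did not. A scaling by the median of ratios, the same RPKM total or TMM gave 12 between endoderm and epiblast, with *Itgb1*, *Lamb2* and *Lamc1* added, the same upper quartile gave 8 without *Lamb1*, and a pseudocount of 1 gave 8 without *Itgav*. Scaling by the median of ratios moved every log2 ratio of endoderm by 0.11 against either other layer, TMM did likewise, and the upper quartile moved endoderm against epiblast by -0.12. No called member changed direction under any of these settings. The pseudocount shrank ratios that rest on a level near 0. Endoderm over mesoderm went from 0.00804 to 0.102 for *Col1a1* and from 0.0345 to 0.188 for *Lama4*. No paired analysis was possible because each germ layer has 1 library, and for the same reason no library could be left out. Depth limits the 43 members at or below 1 RPKM, whose ratios rest on few reads.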
